A study of Mus musculus with 7 samples.

Results

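The normal transcriptome of the mouse cardiac region at embryonic day 8.5 was described from the 4 control embryos of a study with 7 embryos. The 4 control libraries were chosen by genotype alone, Hoxb1 +/+ ; Nodal flox/+, and no library of the other genotype entered any value given here. Each library holds the RNA of 1 embryo: the cardiac region was microdissected, frozen, and sequenced after selection of polyadenylated RNA. The study as a whole asks what the heart region transcribes when Nodal, a secreted signal of the left side, is inactivated. The controls have intact Hoxb1 on both chromosomes, no Cre recombinase, and 1 conditional (floxed) beside 1 intact Nodal allele. They are therefore heterozygous for a conditional allele and of mixed genetic background, not embryos of an inbred wild-type strain. Controls 2 and 4 are male and controls 1 and 3 are female by the labels. A substage is given in the file headers, E8.5f for both males and E8.5e for both females, and it cannot be told apart from sex here.

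At this stage the mouse heart is a tube that bends and starts to beat. Its myocardium was laid down by the first heart field and grows as precursors of the second heart field, in the neighbouring pharyngeal and posterior mesoderm, join both poles. Inside the tube lies the endocardium, behind it the foregut, and above it the hindbrain and the first somites, so a dissected cardiac region can hold all of these. Embryonic cardiomyocytes use a mixture of sarcomere genes that adult muscles keep apart, and the family member that leads in such tissue is often not the adult one.

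Recovered depth in controls 1 to 4 was 13223545, 12693876, 10037739 and 7155994 reads assigned to genes. One read was worth 0.0756 to 0.140 CPM, the reads of a gene scaled to the total of its library, so control 4 was the shallowest library and had the coarsest step. Levels that compare genes are given as TPM, reads per base of annotated exon scaled to the same total in each embryo. Levels that compare embryos for 1 gene are TPM or the deposited normalised count. Xist, the transcript of the inactive X chromosome, had 20 and 27 reads in the controls labelled male and 12548 and 12259 reads in those labelled female, so the RNA of the 4 embryos matched the sex labels. Errors are SD over n = 4 embryos unless another n is given.

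The reads of the cardiac region were spread over many genes, and protein-coding genes held 96.8% of them on average. Of 48526 listed genes, 27510 had a read in at least 1 control, 19310 had one in all 4, and 14932 reached 1 TPM in all 4 embryos. A further 5142 genes reached 1 TPM in 1 to 3 of the embryos. Protein-coding genes made up 12342 of the 14932, or 82.7%, beside 895 long noncoding genes and 1465 annotated pseudogenes. The sources used here do not say how reads shared by a gene and its pseudogene copies were assigned, which makes the level of a pseudogene and of its parent gene uncertain. The 10 genes with most reads held 3.20% of all reads, the top 100 held 14.3% and the top 1000 held 45.6%. It took 1239 genes to reach 50% of the reads.

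By abundance, 89 genes stood at 1000 TPM or more and held 9.97% of reads. The 1844 genes between 100 and 1000 TPM held 42.1%, and the 8281 genes between 10 and 100 TPM held 44.4%. The 7227 genes between 1 and 10 TPM held 3.25%. Genes of middle abundance thus carried most of the sequence. The median level of a gene at 1 TPM or more in all 4 embryos was 20.7 TPM. Below 1 TPM the libraries held too few reads for a stable value: the median coefficient of variation (CV, SD over mean) was 95.1% for genes of 0.1 to 1 TPM, against 6.98% for genes of 100 to 1000 TPM.

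**Figure D1:**
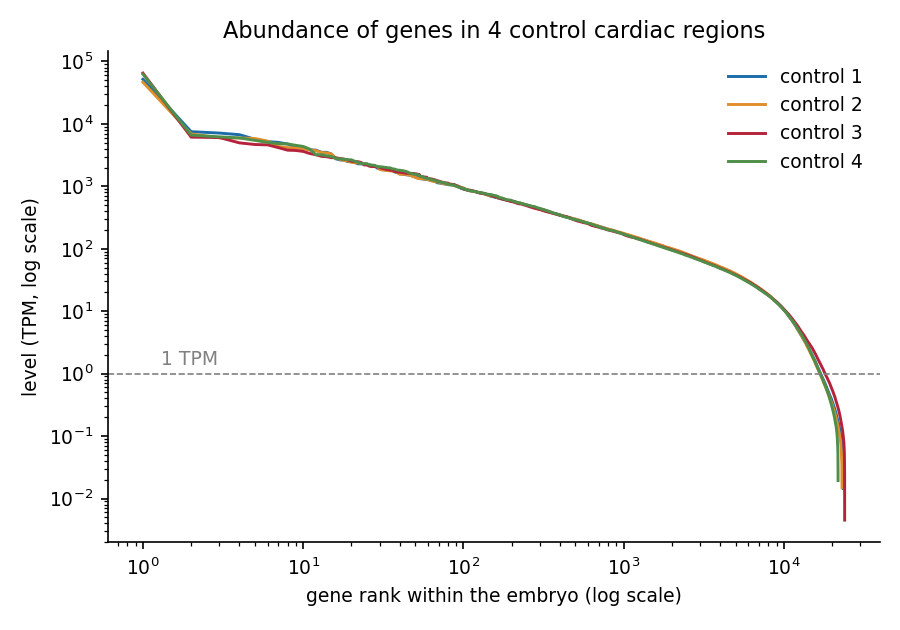
Level of each gene (TPM, log scale) against its rank within the embryo (log scale), with 1 line for each of the 4 control embryos and a dashed line at 1 TPM. The 4 curves run close together, start at a 57-base gene between 46625 and 65149 TPM and cross 1 TPM between ranks 16719 and 18033.

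Genes of protein synthesis and folding, the embryonic growth locus of Igf2 and H19, and genes of the contractile apparatus were among the 20 most abundant nuclear genes. Eef1a1, the elongation factor that brings aminoacyl-tRNA to the ribosome, led the nuclear messenger RNAs with 5061, 5303, 6055 and 5961 TPM in controls 1 to 4. Hsp90ab1, a cytosolic chaperone, followed at 4396 ± 203 TPM. Ribosomal proteins Rplp1, Rps15, Rplp0 and Rpl4, the elongation factor Eef2, the nuclear proteins Ptma and Npm1, the RNA-binding protein Ybx1, the cytokine Mif and the tubulin Tubb5 were also in the top 20, each between 2251 and 3423 TPM on average. The 102 cytosolic ribosomal protein genes together took 3.24, 3.10, 3.61 and 3.51% of the reads of controls 1 to 4.

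H19 and Igf2 are imprinted neighbours on chromosome 7, where H19 (ENSMUSG00000000031, GRCm38 142575529 to 142578143) is a long noncoding RNA and Igf2 (ENSMUSG00000048583, 142650766 to 142666816) encodes a fetal growth factor. H19 had 5679, 5952, 3797 and 6207 TPM in controls 1 to 4. Igf2 had 2474, 2811, 1654 and 3004 TPM, and was the gene with the highest normalised count of all, 48488 on average. Both were lowest in control 3 and highest in control 4. Igf2 averaged 396-fold the level per length of Igf1, the other growth factor of its family, which stood at 6.27 ± 1.91 TPM.

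Of the contractile apparatus, Myl7, the atrial regulatory light chain of myosin, and Actc1, the cardiac alpha-actin, stood among the 8 most abundant nuclear genes per length. Myl7 (ENSMUSG00000020469) lies on chromosome 11 at 5896637 to 5898782 and Actc1 (ENSMUSG00000068614) on chromosome 2 at 114047282 to 114053548, both on the minus strand of GRCm38. Myl7 had 3849.6, 3968, 1913 and 5062 TPM in controls 1 to 4. Actc1 had 3803, 4165, 1608 and 4835 TPM. Both were lowest in control 3, while Actb, the cytoplasmic beta-actin, was steady there at 3627 TPM beside 3507, 3482 and 3945 TPM in controls 1, 2 and 4.

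The highest TPM of all belonged to Gm23935, a miRNA-type annotation of 57 bases on chromosome 16, at 56570 ± 8807 TPM. It held just 0.0955% of the reads, and its rank rests on the division by so short a length, as does that of Gm24270, also 57 bases long, at 3992 TPM. The ribosomal RNA annotation CT010467.1, which polyadenylated selection should mostly remove, remained at 2450.2 ± 295 TPM. Mitochondrial genes held 1.43, 1.199, 0.982 and 1.004% of reads in controls 1 to 4, and mt-Cytb, of respiratory complex III, and mt-Co1, of complex IV, were the highest at 6794 ± 572 and 5781 ± 748 TPM. The complex I genes mt-Nd1, mt-Nd6 and mt-Nd5 averaged 5482, 3978 and 3355 TPM; mt-Nd6 lies on the strand opposite its neighbours and overlaps mt-Nd5, and whether the reads were counted by strand is unknown.

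Gene families were compared member by member, which shows the form of each protein that this tissue transcribes most. In 50 of 61 families the same member led in all 4 embryos. The leader exceeded the next member at least 10-fold in 15 families, 2- to 10-fold in 21 and by less in 25, as the ratio of mean TPM. With 4 embryos an exact paired test of an order cannot pass 0.05, so orders are given by embryo and without a test. Levels per length depend on the annotated exon length: 45 families were led by 1 member in all 4 embryos and under both other length settings tried, the longest transcript and no length correction.

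Muscle and non-muscle actins were at similar levels. Actc1 led the family in controls 1, 2 and 4 and Actb led in control 3, where the muscle actins were low. Acta2, the smooth muscle actin that early cardiomyocytes also use, had 1588, 1772, 742 and 1976 TPM in controls 1 to 4. Acta1, the skeletal alpha-actin, had 465, 450.5, 135 and 485 TPM. The muscle actins were thus all present, in the order Actc1, Acta2, Acta1 in every embryo. The cytoplasmic Actg1 was flat, at 1224 ± 38.7 TPM, and the enteric smooth muscle actin Actg2 stood at 15.2 ± 4.23 TPM.

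The sequences shown next are the 100 bases before the RefSeq start (GRCm38.p6) of the actin and myocardium-list genes that have a CArG box there, the sequence that serum response factor binds and that is known from muscle actin promoters; capitals mark the box. They are shown as descriptions of sequence, and no link between a box and the level of a gene was tested.
Actc1, chr2:114052876-114052975, minus strand: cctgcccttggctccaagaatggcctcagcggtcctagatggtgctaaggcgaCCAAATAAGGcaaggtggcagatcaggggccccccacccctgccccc
Acta1, chr8:123894776-123894875, minus strand: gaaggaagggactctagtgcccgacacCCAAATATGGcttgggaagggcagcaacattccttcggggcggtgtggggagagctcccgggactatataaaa
Actg1, chr11:120348496-120348595, minus strand: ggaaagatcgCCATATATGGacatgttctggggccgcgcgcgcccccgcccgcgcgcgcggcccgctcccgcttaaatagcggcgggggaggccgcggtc
Myl7, chr11:5898783-5898882, minus strand: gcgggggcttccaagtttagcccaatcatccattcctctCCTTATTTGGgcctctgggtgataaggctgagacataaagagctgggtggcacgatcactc
Myl3, chr9:110763578-110763677, plus strand: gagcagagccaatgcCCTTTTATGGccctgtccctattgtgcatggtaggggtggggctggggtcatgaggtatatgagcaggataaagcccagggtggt

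The box starts at -47 in Actc1, -73 in Acta1, -90 in Actg1, -61 in Myl7 and -85 in Myl3, counted from the RefSeq start. The windows of Actc1 and Myl3 fall inside the GENCODE gene, which starts further upstream, and that of Actg1 overlaps the start of its gene. Of 16422 protein-coding genes with a RefSeq promoter, 261 or 1.59% had a CArG box on either strand in the 250 bases before a start. Among the 54 such genes at 1000 TPM or more there were 4, or 7.41%: Actc1, Actg1, Igf2 and Myl7. In the myocardium list 3 of 15 genes had one, and 3 of the 4 actins that matched a promoter. Each box marked above reads CC, a run of A and T, then GG. No match was found in this window in Acta2, Tnnt2, Myh6 and the other 10 genes of the myocardium list without one. A box that departs from that form is not covered, so a missing match does not show that a gene lacks a box. Actg1, whose window holds the box, was flat between embryos. Acta2, without a match, was lowest in control 3, as were Actc1, Acta1 and every gene of the myocardium list, with or without a match. The letters TATAAA, on either strand in the same window, were in 5.56% of the genes at 1000 TPM or more, against 13.2% of all 16422 and 22.1% of those under 1 TPM. These matches are descriptions of sequence and were not tested against any measurement of binding.

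Among sarcomeric myosin heavy chains, which pull on actin, Myh6, the alpha form, led over Myh7, the beta form, in every embryo. The genes are neighbours on chromosome 14 of GRCm38, Myh6 at 54941921 to 54966927 and Myh7 at 54970684 to 54994626. Myh6 had 1042, 1187, 432 and 1490.4 TPM in controls 1 to 4. Myh7 had 442, 561, 167 and 506 TPM. The ratio of Myh6 to Myh7 was 2.36, 2.12, 2.58 and 2.94. Myh7b stood at 5.92 ± 1.54 TPM, and the skeletal forms Myh1, Myh2, Myh3, Myh4 and Myh8 had 0 to 4 reads in any embryo. Reads that the long and near-identical Myh6 and Myh7 share could be split between them by the counting, which would draw their ratio towards 1.

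The regulatory light chains were led by their atrial member in every embryo, and the essential light chains by an atrial or a non-muscle member. In the regulatory family Myl7 was at 32.4, 29.4, 37.8 and 34.0 times Myl2, the ventricular form, which had 119, 135, 50.7 and 149 TPM in controls 1 to 4. Non-muscle and smooth muscle Myl9, at 662 ± 237 TPM, ranked next to Myl7. In the essential family Myl4, the atrial and embryonic form, stood at 338, 359.8, 141 and 415 TPM and Myl3, the ventricular form, at 188, 229, 80.9 and 256 TPM. Myl6, the non-muscle form, was close to Myl4 in controls 1 and 2, below it in control 4 and above it in control 3, with 346, 359, 258 and 384 TPM. By mean level Myl6 led the essential family, but Myl4 led with either other length setting, so this order is not settled.

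Troponins, the calcium switch of the thin filament, combined cardiac and slow skeletal forms. Tnnt2, the cardiac troponin T, had 343, 368, 143 and 419 TPM in controls 1 to 4, and averaged 9.98 times Tnnt3, the fast skeletal form. Tnni1, the slow skeletal troponin I that the embryonic heart uses, had 215, 249, 105 and 284 TPM, against 38.9, 51.7, 11.9 and 53.2 TPM of Tnni3, the cardiac form of the adult. Tnnc1, the troponin C shared by heart and slow muscle, had 764, 827, 349.5 and 909.6 TPM, while its fast skeletal partner Tnnc2 had 0, 0, 1 and 0 reads. The embryonic choice of troponin I was seen in all 4 embryos, with Tnni1 at 5.52, 4.81, 8.85 and 5.33 times Tnni3.

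Most pairs of sarcomere genes kept a steadier proportion to each other than their levels, with Ttn, the giant titin, as the exception. Over all 105 pairs of the 15 genes of the myocardium list, the highest TPM ratio was a median of 1.28 times the lowest, while the level of a gene itself had a median range of 2.94-fold. The ratio had a narrower range than either gene alone in 81 pairs, and each of the other 24 pairs held Ttn or Nppa. The ratio of Actn2 to Ttn had a 2.87-fold range, against 3.63-fold for Actn2 and 1.95-fold for Ttn. Tnnc1 to Tnnt2 was 2.22, 2.25, 2.45 and 2.17 in controls 1 to 4, so the highest ratio was 1.13 times the lowest, while the normalised count of Tnnt2 itself was 3.13 times higher in control 4 than in control 3. The same measure was 1.13 for Actc1 to Acta2, 1.15 for Myl4 to Myl3, 1.18 for Tnnt2 to Tnni1 and 1.28 for Myl7 to Myl2. It was 1.39 for Myh6 to Myh7, 1.46 for Actc1 to Acta1 and 1.84 for Tnni1 to Tnni3. The ratio of Myh6 to the non-muscle Myh10 moved more, at 4.05, 3.57, 1.64 and 5.36 in controls 1 to 4, a 3.27-fold range. The ranges of the ratios do not depend on exon length, which cancels between embryos.

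Tropomyosins, alpha-actinins and non-muscle myosins had near-tied leaders. Tpm4, a non-muscle form, had 785, 783, 629 and 747 TPM and Tpm1, the cardiac form, 735, 774, 420.4 and 842 TPM in controls 1 to 4, so Tpm1 led in control 4 alone. Actn1 and Actn4, the non-muscle actinins, averaged 322 ± 43.4 and 295 ± 20.3 TPM, and Actn2, the sarcomeric one, 149 ± 65.2 TPM. Myh10 and Myh9 averaged 283 ± 34.4 and 276 ± 16.5 TPM. These pairs differed by less than the spread between embryos, and in the tropomyosin and non-muscle myosin families the leader changed with the longest transcript as length.

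**Figure D2:**
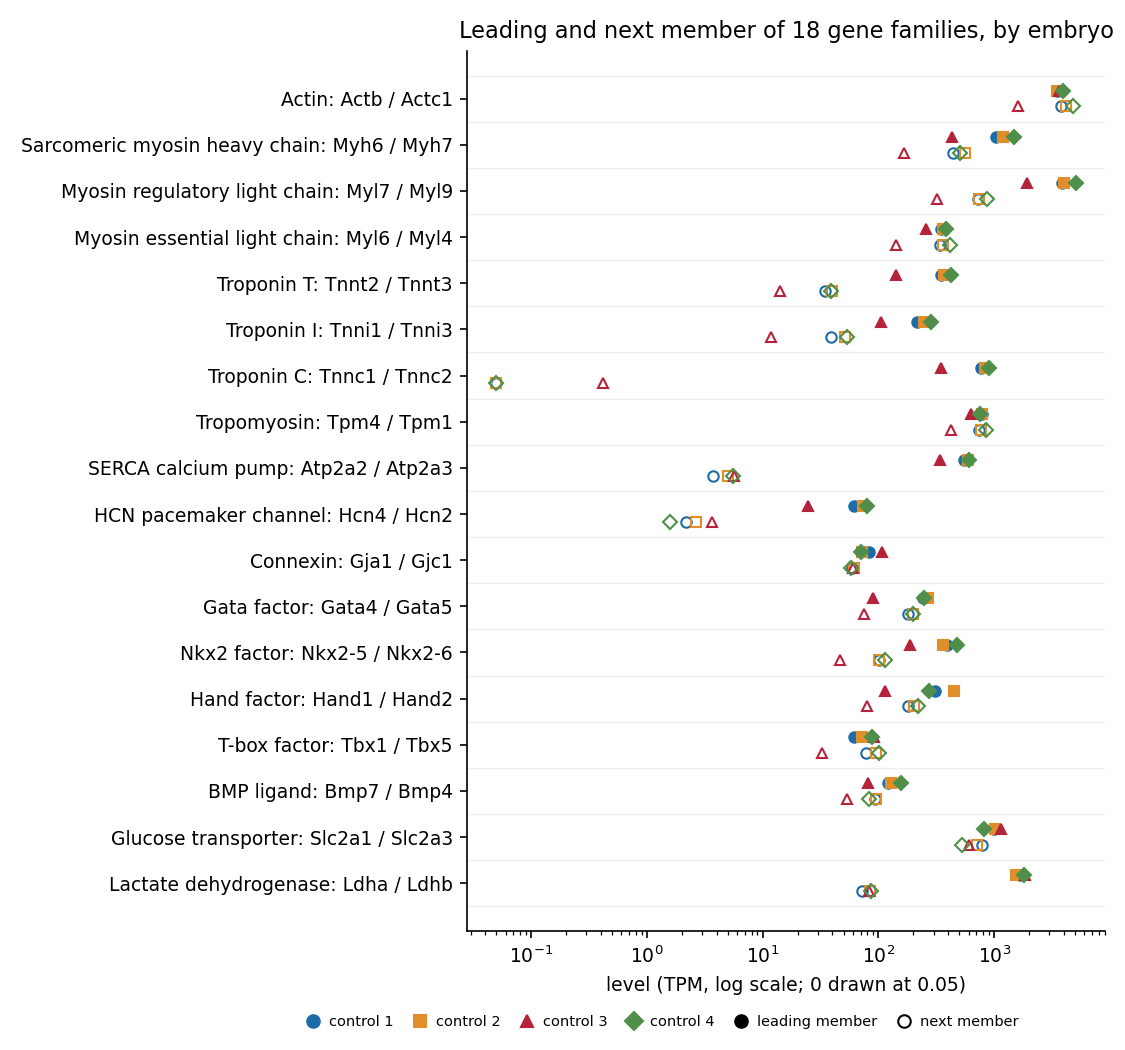
Level (TPM, log scale) of the leading member (filled symbols) and the next member (open symbols) of 18 gene families in each of the 4 control embryos, with 0 TPM drawn at 0.05. Control 3 (triangles) lies to the left of the other embryos for Actc1 and for both members of the sarcomeric heavy chain, light chain, troponin T, troponin I, Gata, Nkx2 and Hand families, and not for Actb, Slc2a1 or Ldha.

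Calcium handling and pacemaking genes had cardiac leaders at this early stage. Atp2a2, the cardiac calcium pump of the sarcoplasmic reticulum, had 548, 597, 337 and 608 TPM in controls 1 to 4, and the other 2 pumps of the family averaged 4.97 and 3.46 TPM. Ryr2, the cardiac calcium release channel, had 23.7, 31.2, 12.5 and 34.8 TPM, beside 1.12 ± 0.202 TPM of Ryr1. Slc8a1, the sodium calcium exchanger of heart, led at 32.3 ± 13.1 TPM. Hcn4, the channel of the pacemaker current, had 61.4, 73.8, 24.8 and 79.1 TPM, 23.7 times Hcn2 on average. Atp2a2, Ryr2, Slc8a1 and Hcn4 were lowest in control 3, whereas the minor members Ryr1 and Hcn2 were highest there, at 1.42 and 3.68 TPM.

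In the L-type calcium channels, Cacna1d and Cacna1c were close, at 17.3 ± 7.21 and 12.9 ± 3.99 TPM. The T-type channels Cacna1g and Cacna1h averaged 7.20 and 5.50 TPM, and Cacna1g led in control 3 alone, with 14.5 TPM there beside 5.17, 4.56 and 4.55 TPM in controls 1, 2 and 4. Connexins, which join cells electrically, were led by Gja1 at 83.2, 72.7, 108 and 70.2 TPM, ahead of Gjc1, the connexin of the earliest heart, at 59.6 ± 1.18 TPM. Gja5, the atrial and conduction connexin, stood at 7.82 ± 2.99 TPM. Gja1 was thus highest, and Gja5 lowest, in control 3.

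Genes of glycolysis stood at high levels. Glucose entry was shared by Slc2a1, at 990.3, 1017, 1137 and 822 TPM in controls 1 to 4, and Slc2a3, at 777, 714, 602 and 526 TPM, whereas Slc2a4, the insulin-sensitive transporter of adult heart, was at 7.24 ± 0.997 TPM. Hk2 led the hexokinases at 197 ± 37.4 TPM, 6.62 times Hk1. Aldoa, Eno1, Pkm and Ldha, later enzymes of the pathway, averaged 1456, 1154, 1978 and 1721 TPM and took 99.1, 86.0, 99.9 and 95.5% of their families. Ldhb, the lactate dehydrogenase of oxidative tissue, had 81.4 ± 5.95 TPM, and Ldha was 18.4 to 22.9 times higher in each embryo. These enzymes were not low in control 3, where Ldha had 1847 TPM beside 1664, 1554 and 1818 TPM in controls 1, 2 and 4.

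Forms typical of adult muscle mitochondria were minor. Cox6a1 stood at 557 ± 22.1 TPM and the muscle form Cox6a2 at 14.6 ± 6.002 TPM. Ckb, the brain-type creatine kinase, had 134, 149, 71.1 and 170.4 TPM in controls 1 to 4 and took 98.8% of its family, while Ckm, the muscle-type enzyme, had 2, 4, 0 and 1 reads.

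Matrix genes of the cardiac jelly and of basement membranes were well represented. Has2, which makes the hyaluronan of the cardiac jelly, had 154, 127, 94.8 and 112 TPM in controls 1 to 4, 58.3 times Has3. Vcan, the large proteoglycan that binds hyaluronan, had 207, 265, 198 and 259.5 TPM, 142 times the next of its family. Col2a1, best known from cartilage and notochord, led the fibrillar collagens at 264 ± 55.2 TPM, ahead of Col5a1 at 136 ± 35.3 TPM. Basement membrane genes Col4a1 and Lama5 led at 293 ± 30.5 and 75.2 ± 2.25 TPM, and Itgb1, the shared integrin beta chain, at 315 ± 58.4 TPM.

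In the nucleus, lamin B1 (Lmnb1) stood at 588 ± 34.0 TPM and lamin A/C (Lmna), a lamin of differentiated cells, at 9.65 ± 2.40 TPM. Keratins Krt8 and Krt18, partners in simple epithelia, were nearly equal in each embryo, at 932, 1101, 496 and 864 TPM for Krt8 and 938, 986, 481.2 and 798 TPM for Krt18. Cdh5 of endothelium, Cdh1 of epithelium and Cdh2 of myocardium and neural tube averaged 147, 109 and 102 TPM, and the 3 were nearly level in control 3, at 97.6, 99.6 and 100.3 TPM. Cdh2 led the cadherins by mean level with either other length setting, so their order is not settled. The maintenance methyltransferase Dnmt1 led at 243 ± 20.7 TPM over Dnmt3b, a de novo enzyme, at 123 ± 17.9 TPM, and Ccnd2 led the D cyclins at 151 ± 20.7 TPM.

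Cardiac transcription factors had clear leaders in some families and shared ones in others. Nkx2-5, the homeobox factor of cardiomyocytes and their precursors, had 394.5, 358, 187 and 472 TPM in controls 1 to 4 and was 3.90 times Nkx2-6 on average. Gata4 had 244, 268, 90.2 and 247 TPM, and Gata5 and Gata6, zinc-finger partners in heart and endoderm, averaged 163 ± 59.3 and 88.0 ± 29.2 TPM. Hand1 had 305, 453, 114 and 275 TPM and Hand2 had 181, 202, 79.2 and 219.8 TPM, so Hand1 led in all 4 but by 1.25-fold to 2.24-fold. Each of these factors was lowest in control 3, like the sarcomere genes.

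The T-box genes Tbx1 and Tbx5 differed in which embryo was low. Tbx1, of the pharynx and second heart field, had 61.7, 72.0, 92.0 and 87.3 TPM in controls 1 to 4, whereas Tbx5, of the posterior heart, had 78.2, 95.1, 32.3 and 100.4 TPM. Tbx5 led in controls 1, 2 and 4 and Tbx1 in control 3. Tead2, a partner of the growth regulator Yap, had 407 ± 16.5 TPM, 3.83 times Tead1. In the Mef2 family Mef2d led over Mef2c at 69.4 ± 11.4 and 39.2 ± 12.6 TPM, but Mef2c led with either other length setting, so this order is not settled.

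Signalling genes were led by Bmp7 among the BMP ligands (121 ± 31.3 TPM, Bmp4 81.5 ± 19.2 TPM), Fgf8 among the FGF ligands (90.5 ± 11.6 TPM) and Fgfr1 among the receptors (88.1 ± 14.3 TPM). Notch3 was ahead of Notch2 at 74.0 ± 5.90 and 46.7 ± 10.1 TPM, and Jag1 was the leading Notch ligand at 74.1 ± 3.05 TPM. Wnt2, of the posterior heart field, had 117, 136, 47.2 and 119 TPM in controls 1 to 4, and Tgfb2, of cardiac cushions, 119, 134, 53.5 and 105 TPM. Aldh1a2, which makes retinoic acid in posterior mesoderm and somites, took 99.2% of its family, at 94.8, 171, 152 and 116 TPM. Wnt2 and Tgfb2 were lowest in control 3, and Fgfr1, Notch3 and Notch2 were highest there.

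In 11 families the leader changed between embryos, and in 9 of those the mean levels of the leader and the next member were less than 2-fold apart. In 5 of them control 3 alone had another leader than the other 3 embryos. Near-identical globin copies were among the 11 as well. The pairs Hba-a1 and Hba-a2, and Hbb-bs and Hbb-bt, share most of their sequence, so reads could be split between them.

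The left-right genes of the study were low or moderate in these controls. Nodal, whose expression in heart precursors is brief, had 9, 3, 6 and 0 reads in controls 1 to 4, and the 0 in control 4 allows up to 0.419 CPM (3 reads of the library, counting error only). Lefty2, a Nodal antagonist and target, had 70.2, 41.8, 39.5 and 40.1 TPM. Hoxb1, the locus that drives Cre in the study, had 69.6, 93.8, 79.6 and 79.2 TPM. Lefty2 stood apart in control 1 and was nearly level in the other 3 embryos.

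Markers of the tissues that the dissected region could hold were followed in 17 lists. All 15 genes of the myocardium list were above 1 TPM in all 4 embryos, as were 12342 of the 21760 protein-coding genes listed. The list summed to 11738, 12674, 5281 and 15121 TPM in controls 1 to 4, or 0.981, 1.01, 0.460 and 1.31% of reads. All 15 members were lowest in control 3, and 14 of 15 were highest in control 4. Among all 10403 genes with a mean normalised count of at least 100, control 3 was lowest for 38.1% and control 4 highest for 23.9%. Members of the myocardium list in control 3 stood at 10.4 to 63.9% of the mean of the other 3 embryos, with a median of 36.8%. In bulk tissue a smaller number of cardiomyocytes and less of this RNA per cell cannot be told apart. Nppa, a natriuretic peptide of chamber myocardium, had the widest range of the list, with 55, 58, 5 and 37 reads in controls 1 to 4.

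Control 3 was also the embryo with most RNA of neural tube, somites and notochord. The neural tube list summed to 246, 215, 531 and 206 TPM in controls 1 to 4, and the hindbrain and midbrain list to 95.3, 69.6, 196 and 79.1 TPM. Irx3 was even, at 192, 191, 231 and 175 TPM, whereas Sox2 had 37.1, 19.3, 140.3 and 24.7 TPM and Sox1, a marker of neural plate, 6.93, 0.285, 74.9 and 0.763 TPM. Sox1 RNA was thus near absent in controls 2 and 4, low in control 1 and plain in control 3. The neural crest list summed to 919, 776, 1969 and 759 TPM, but this sum followed 1 gene. Crabp1, a retinoic acid binding protein also found in hindbrain, had 530.2, 424, 1588 and 499 TPM. Twist1 and Snai1 had 209 and 90.2 TPM in control 3 beside 158 to 218.5 and 55.7 to 82.2 TPM in the others. Low members of the list varied in other ways: in controls 1 to 4 Sox10 had 180, 10, 20 and 11 reads. Tfap2b had 55, 5, 25 and 2 reads, and Foxd3 had 48, 0, 83 and 0. By mean log2(TPM + 1) the list was highest in control 1, at 4.75, beside 3.92, 4.70 and 3.73 in controls 2 to 4.

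The paraxial mesoderm list summed to 171, 367, 677 and 269 TPM in controls 1 to 4. Its somite gene Meox1 had 11.1, 84.3, 246 and 63.5 TPM, and Foxc2 had 50.4, 77.9, 164 and 73.1 TPM. Control 1 was therefore the lowest for somite genes, and controls 2 and 4 lay between it and control 3. The node and notochord list summed to 51.9, 55.7, 112 and 57.7 TPM, and its gene T, the brachyury factor, had 14, 19, 220 and 24 reads. The list's Foxa2 and Nog, at 24.9 and 19.8 TPM on average, are also genes of endoderm and other mesoderm. The part of neighbouring tissue in the low myocardial share of control 3 was not tested.

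Over the 4 embryos, the lists of heart precursors and vessels had smaller ranges than myocardium, and this order rested in part on control 3. The highest embryo was 2.86, 1.46, 1.49 and 1.79 times the lowest for the myocardium, second heart field, posterior heart field and endothelium lists. Without control 3 the same ranges were 1.29, 1.10, 1.46 and 1.28, so that the posterior heart field list then varied more than myocardium. The second heart field list summed to 563, 569, 424 and 620.4 TPM in controls 1 to 4, and all 10 of its genes were at 1 TPM or more in all embryos. The posterior heart field and proepicardium list summed to 519, 759, 508 and 629 TPM. The endothelium and endocardium list summed to 654, 763, 426 and 594 TPM, led by Plvap, of fenestrated endothelium, at 197 ± 56.2 TPM, then Cdh5 and the angiopoietin receptor Tek at 61.1 ± 20.9 TPM. All of these lists were lowest in control 3, by a smaller margin than myocardium.

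Markers of endoderm were present in every embryo. The foregut and pharyngeal endoderm list summed to 786, 724, 435 and 633 TPM in controls 1 to 4, led by the tight junction gene Cldn6 at 258 ± 57.3 TPM, with Pyy, a gut peptide, at 119 ± 58.4 TPM and Epcam, an epithelial adhesion protein, at 113 ± 20.8 TPM. The yolk sac and visceral endoderm list summed to 1820, 1071, 805 and 625 TPM, highest in control 1. Its apolipoprotein Apoa1 had 568, 263, 279 and 137 TPM, and the carriers Ttr and Rbp4 averaged 330.2 and 209 TPM. The liver bud list summed to 856, 655, 413 and 517 TPM but shares Ttr and Afp with the yolk sac list, and its Alb, the albumin gene, had no read in any of the 4 embryos. Surface ectoderm genes, led by Krt8 and Krt18, which other epithelia also express, summed to 2067, 2273, 1140.1 and 1811 TPM.

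Globin genes held a small share of the reads. The 7 globin genes together held 0.00146, 0.00296, 0.000349 and 0.0108% of reads in controls 1 to 4. The primitive erythroid list summed to 56.9, 83.0, 17.3 and 234 TPM. The embryonic globins Hba-x and Hbb-bh1 had 65, 87, 0 and 45 reads and 47, 33, 0 and 22 reads, while Hba-a1, a globin of definitive as well as primitive cells, had 16, 59, 16 and 217 reads and Hbb-bs 44, 126, 15 and 339 reads. Control 3 thus had no read of either embryonic globin, where a count of 0 allows up to 0.299 CPM, and control 4 had most of the adult-type globins but not of the embryonic ones. The white blood cell list summed to 20.7, 24.2, 23.4 and 27.3 TPM, carried by Cd68 and Mrc1, both also expressed outside blood, and its T-cell gene Cd3e had no read.

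Control 4 carried RNA of genes known from maternal decidua, the uterine lining around the embryo. A decidua list, drawn up after these values were seen, summed to 267, 451, 114 and 1161 TPM in controls 1 to 4. Prl8a2, a decidual prolactin relative, had 21, 290, 3 and 1181 reads. Cyp11a1, the first enzyme of steroid synthesis, had 9, 60, 1 and 335 reads, and A2m, a protease inhibitor, 71, 523, 43 and 1655 reads. The posterior homeobox genes Hoxa10 and Hoxa11, which mark uterus, had 75 and 47 reads in control 4, 13 and 13 in control 2 and at most 2 in controls 1 and 3. The order control 4, control 2, then controls 1 and 3 was the same for these 5 genes. Tdo2, Prl3c1 and Esr1 of the list were also highest in control 4 and next highest in control 2. The list's Pgr broke that order, with normalised counts of 44.9, 27.5, 36.9 and 90.0 in controls 1 to 4, lowest in control 2. Cryab, also in that list, is a chaperone of cardiomyocytes and had 251, 328, 107 and 389 TPM, in the order of the sarcomere genes. The trophoblast list, at 366, 522, 151 and 401 TPM, was led by Hand1, also a heart gene, but its placental lactogen Prl3d1 had 3, 26, 0 and 141 reads. Xist had 20 and 27 reads, or 1.58 and 3.77 CPM, in controls 2 and 4, labelled male, beside 949 and 1221 CPM in the female controls 1 and 3. The source of the RNA of decidual and placental genes was not tested.

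The skeletal muscle list summed to 531, 530.1, 178 and 569 TPM in controls 1 to 4, and Acta1, which embryonic heart expresses, made up most of it. The myogenic regulators Myod1 and Myog had at most 5 and 1 reads in any embryo. In 11 of the 17 lists the highest embryo was at least 2 times the lowest. Without control 3 that held for 3 lists, primitive erythroid, yolk sac, and paraxial mesoderm. Control 3 was the lowest embryo in 10 of the 17, and for 38.1% of the 10403 genes with a mean normalised count of at least 100. The lists are not independent of each other. Acta1 and Hand1, which the heart also expresses, led the skeletal muscle and trophoblast lists, and the liver bud and yolk sac lists share Ttr and Afp.

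**Figure D3:**
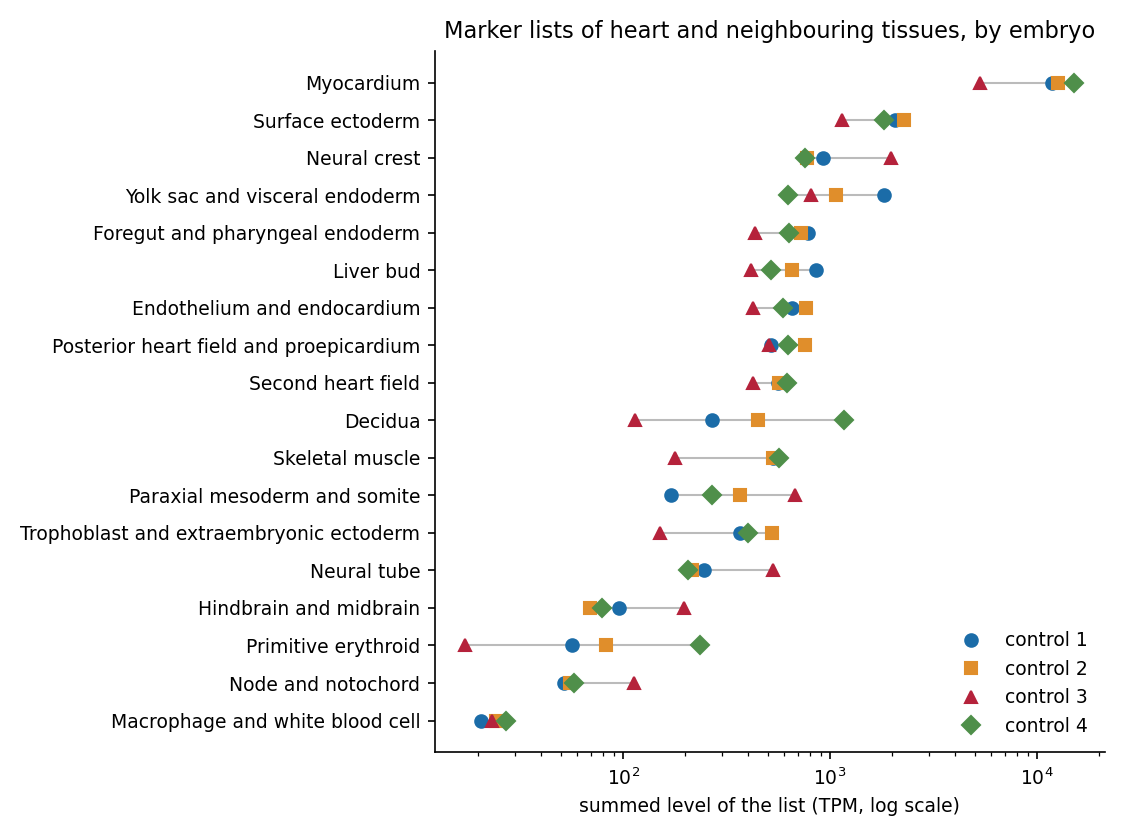
Summed level of each marker list (TPM, log scale) in the 4 control embryos, with a grey line from the lowest to the highest embryo; the decidua list was added after the values were seen. Control 3 (triangles) is lowest for myocardium at 5281 TPM and highest for neural tube at 531 TPM, and control 4 (diamonds) is highest for decidua at 1161 TPM.

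Most genes varied little between control embryos. Over the 10403 genes with a mean normalised count of at least 100, the median CV was 9.16%, with quartiles of 5.80 and 14.9%, while read counting alone would give a median of 4.63%. A CV under 10% was found for 5784 genes, or 55.6%. The CV was 50% or more for 169 genes, or 1.62%, of which 51 reached 100%. For 1445 genes, or 13.9%, the spread was below that of read counting. The biological coefficient of variation of edgeR, which removes counting error, was 17.1% in common over these genes and 11.2% without control 3. Without controls 1, 2 and 4 in turn it was 18.9, 19.3 and 17.3%.

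Control 3 set much of the upper tail. It was the highest embryo for 94 of the 169 genes of high CV, or 55.6%, against 30.4% of all 10403 genes. Control 4 was the highest for 55, control 1 for 11 and control 2 for 9. The number of genes with a CV of 50% or more was 80 without control 3, 188 without control 4 and 55 without both, an alternative chosen after the data were seen, and 250 and 255 without control 1 and control 2. Between pairs of embryos, 58 genes differed over 2-fold between controls 1 and 2 and 78 between controls 2 and 4, against 519 between controls 3 and 4. The correlation of log2 normalised counts across the 10403 genes ran between 0.935 and 0.984 for the 6 pairs, where genes are not independent replicates and share the library's depth.

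**Figure D4:**
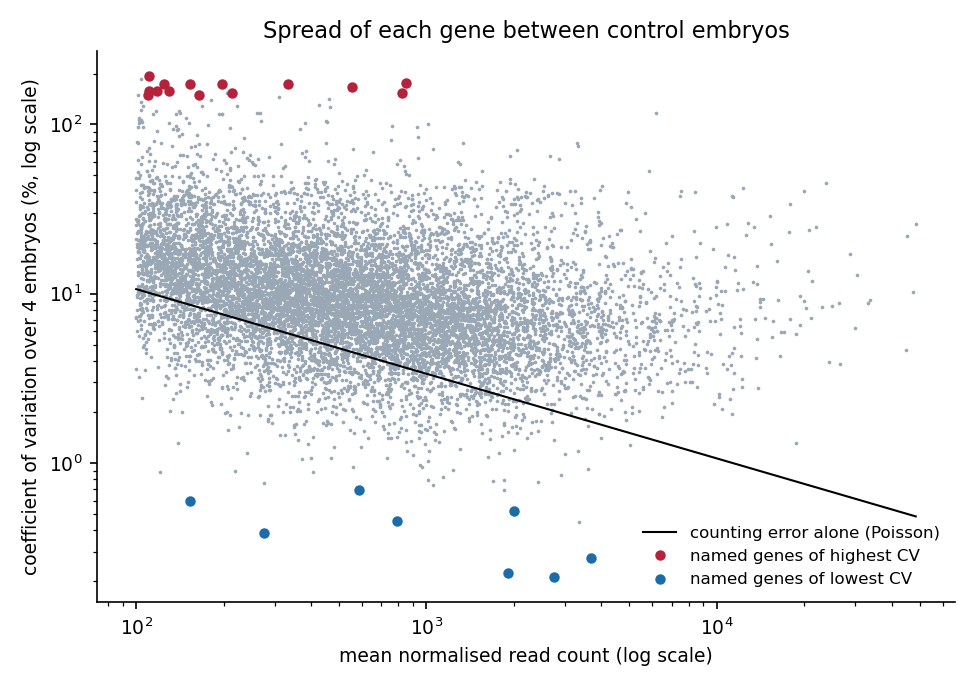
Coefficient of variation over 4 control embryos (%, log scale) against mean normalised count (log scale) for 10403 genes (grey), with 14 named genes of the highest CV in red, 8 of the lowest CV in blue and the line that Poisson counting error alone would give. The 8 blue genes lie under the counting line, and the 14 red genes lie at 149% or more.

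The 14 genes described at the high end of the CV ranking fell into 2 groups. Foxb1, Sox1, Rfx4 and Nrcam were highest in control 3, and all are genes of the developing nervous system. Foxb1, a forkhead factor of neural tube, was at 9.50, 0.917, 434 and 0 normalised reads in controls 1 to 4. Rfx4, a factor of neural tube patterning, had 29.4, 0.917, 447 and 19.6. Nrcam, a neuronal adhesion protein, had 40.6, 17.4, 711 and 22.9. In all 4 the control 3 value exceeded each of the other embryos by more than the range among those.

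The other 10 genes were highest in control 4. Erv3, an endogenous retroviral gene, had normalised counts of 6.91, 305, 10.1 and 3082 in controls 1 to 4. Prl8a2 had 18.1, 266, 3.36 and 1932, and Htra1 and Htra3, secreted proteases, had 708 and 532 in control 4 with 90.8 and 85.3 in control 2. Aoc1, a diamine oxidase, had 4.32, 70.6, 3.36 and 394, and Anxa8, an annexin, had 9.50, 61.4, 3.36 and 368. Nccrp1, A2m, Cyp11a1 and Hba-a1 completed the group. Control 2 was the second highest embryo for each of the 10.

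**Figure D5:**
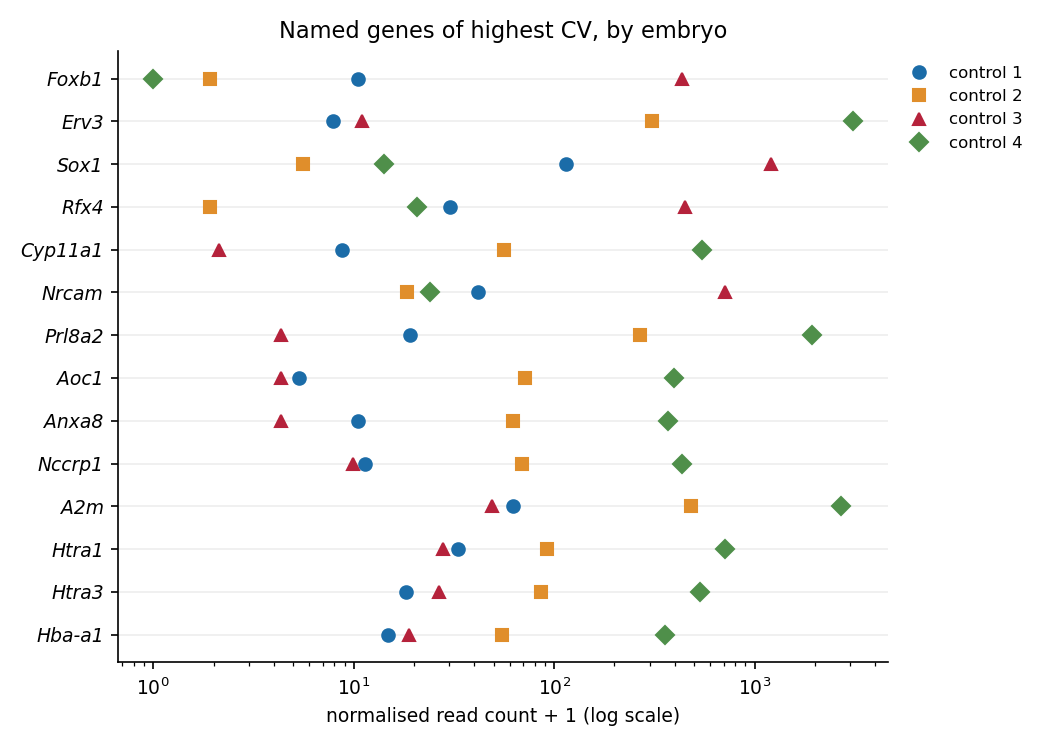
Normalised count plus 1 (log scale) of 14 named genes of high CV in each of the 4 control embryos. Foxb1, Sox1, Rfx4 and Nrcam are highest in control 3 (triangles), and the other 10 are highest in control 4 (diamonds) with control 2 (squares) next.

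At the steady end, Prdx2, a peroxiredoxin that removes hydrogen peroxide, had normalised counts of 2747, 2743, 2757 and 2748 in controls 1 to 4, a CV of 0.211%. Others at this end were Swi5 of DNA recombination, Pnn of splicing, Ap4e1 of vesicle traffic, Atg4b of autophagy, the transcription elongation factor Rtf1, Gcnt2 of glycan branching and Pym1 of the exon junction complex, all under 0.70%. All 8 lie below the spread of read counting, and they are the end of a ranking of 10403 genes, not genes shown to be constant.

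Genes often used as references in expression assays, a list drawn up after the data were seen, ran between 3.42 and 15.5% CV of the normalised count. Ywhaz, Rpl13a, B2m and Sdha were at 3.42, 4.10, 4.51 and 4.71%, and Tbp, Polr2a, Actb, Ppia and Pgk1 at 7.42, 7.91, 8.85, 9.26 and 9.80%. Hprt and Gapdh were the least steady of those reported, at 14.6 and 15.5%. For Gapdh the normalised count was 2386, 2295, 2918 and 3161 in controls 1 to 4. A lower CV than that of Gapdh was found for 76.7% of the 10403 genes.

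Male and female controls were compared as the single contrast that the labels allow within this genotype, with 2 embryos of each sex. Few genes differed: 5 of 15650 tested, or 0.0319%, passed an adjusted p of 0.05 with limma and Benjamini-Hochberg adjustment. Of those, 4 were higher in males and 1 was lower. Kdm5d, Ddx3y, Eif2s3y and Uty, all on the Y chromosome, had log2 differences (male minus female, normalised count plus 1) of 8.57 ± 0.45, 8.18 ± 0.46, 8.14 ± 0.46 and 7.84 ± 0.42 (SE), and Xist had -8.69 ± 0.39. Each had an adjusted p of 0.0127 by limma with Benjamini-Hochberg adjustment. These genes check the sex labels and are not independent findings. In reads, Ddx3y had 466 and 223 in the males, against 1 and 0 in the females, and Kdm5d had 629 and 284 in the males, against 1 and 0 in the females.

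Next in order and not past the threshold, named after their values were seen, were Cyp26c1, a retinoic acid degrading enzyme, at a log2 difference of -2.24 ± 0.20 (SE), and Gdf10, a BMP-related ligand, at -3.90 ± 0.36 (SE), with limma adjusted p of 0.128 and 0.139. The unadjusted p was under 0.05 for 626 genes. The count of called genes turned on single embryos: it was 1185 without control 1, 9 without control 3, and 1 without control 2 or control 4, where Xist remained and the Y-linked genes fell under the filter. A fit with 1 embryo of a sex assumes that the lone embryo varies like the others. The fit on recovered reads gave 4 calls with edgeR, 64 with DESeq2 and 0 with limma-voom, where 445 genes had an unadjusted p under 0.05. The males are also of substage E8.5f, and control 3 with its neural RNA is female, so beyond the X- and Y-linked markers a difference in sex cannot be told apart from one in substage or dissected tissue.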

How the data were processed

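RNA of 4 control embryos was analysed as deposited by the authors. Per the submitters' processing notes, which give neither versions nor roles, the build was GRCm38 and the tools were HISAT2, featureCounts, Subread, DESeq2, edgeR and limma. Their settings and the annotation release, and how strand and multiply mapped reads were treated, are not given in the sources used. The deposited signal values are gene counts that the authors divided by 1 size factor per library: all values (100%) were whole multiples of a library's smallest step within 0.1, so whole reads were recovered. The table's 3 columns of other samples were not used.

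TPM used recovered reads and the union exon length of GENCODE M21 (GRCm38), found for 48144 genes; 14 symbols given as dates were replaced. Spread was the CV of the deposited normalised values for genes with a mean of at least 100. Promoters came from RefSeq (GRCm38.p6). Members and lists were chosen with earlier results of these data known. Named genes were the 20 highest nuclear and 5 highest mitochondrial genes by TPM, the first 2 members of each family, the 15 highest and 10 lowest CV without predicted genes, the sex genes, the 3 highest members and the unread members of each marker list, and 8 fixed genes. A few genes that met these rules are not reported. Other family and list members, the decidua and reference-gene lists, the CArG genes and Cyp26c1 and Gdf10 were chosen after values were seen.

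Males and females were compared with limma 3.58.1 (trended empirical Bayes, R 4.3.3) on log2(normalised count + 1), since the deposited values are not counts, for genes with a value of at least 10 in at least 2 of 4 embryos. Its p-values measure the spread between these embryos only. The fit was tried on simulated counts with the same dispersion for every gene and no embryo that stood apart. In these embryos the common biological coefficient of variation was 17.1%, and 11.2% without control 3. The trial therefore does not show how the fit performs on these data. Alternatives were edgeR 4.0.16, DESeq2 1.42.0 and limma-voom on recovered reads, other filters, pseudocounts, scalings and lengths, and leaving out each embryo. Differences are on that log scale, which understates changes of low genes. Intervals of 0 counts cover counting error only.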

Additional observations from a re-analysis of the deposited data

Results flagged for a closer look

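Among the 4 embryos, a value was singled out when its gap to the nearest other embryo took up most of the whole range (Dixon's 95% criterion). Chance alone singles out about 1 in 20 groups of values; here 22 of 128 were, 13 of them among 22 normalised counts of genes that had mostly been chosen for their spread, so those are no independent sign. No explanation was tested.

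Control 3 stood apart in 4 of 18 summed marker lists: neural tube at 531 TPM (next embryo 246 TPM), neural crest at 1969 TPM (next 919 TPM) and node and notochord at 112 TPM (next 57.7 TPM) were high, and skeletal muscle was low at 178 TPM (next 530.1 TPM). In single genes, control 3 was high for Cacna1g at 14.5 TPM and Fgfr1 at 109 TPM and low for Gata4 at 90.2 TPM. Its normalised counts were high for Foxb1 (434), Sox1 (1205), Rfx4 (447) and Nrcam (711).

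Control 4 stood apart in normalised counts of Erv3 (3082), Cyp11a1 (548), Prl8a2 (1932), Anxa8 (368), Nccrp1 (434), A2m (2707), Htra1 (708), Htra3 (532) and Hba-a1 (355), and in the TPM of Hba-a1 (123). Control 1 stood apart for Lefty2, at 70.2 TPM with 41.8 TPM in the next embryo.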

How the results depend on the processing

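No paired analysis was possible because the controls are 1 group and no label pairs its embryos. The count of expressed genes ran between 11301 and 16327 over all alternatives. By TPM in place of reads, 753 genes held 50% of the total, and class shares were 3.39% mitochondrial, 6.64% ribosomal protein, 0.0170% globin and 1.68% long noncoding. The median CV was 13.0% for genes with a mean of at least 10 and 6.89% for at least 1000, and ran between 6.78 and 9.62% when each embryo was left out. Genes with a CV of 50% or more ran between 80 and 255 without each embryo and were 55 without both control 3 and control 4. Marker lists with a 2-fold range were 7 by mean log2(TPM + 1) and ran between 3 and 11 without each embryo. Sex calls were 64 with DESeq2, 0 with limma-voom and 10 without a filter, and ran between 1 and 1185 without each embryo; Xist and the 4 Y-linked genes kept their direction in every fit that could hold them. The leader of 5 families changed with the longest transcript and of 11 with no length correction. The cause of these shifts was not tested. Depth limits genes under 1 TPM. A single group of 4 embryos, mixed in sex, substage and dissected neighbours, limits every statement on spread.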
